A study of Mus musculus with 2 samples.

Results

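Aquaporins are the water channels of cell membranes, and vasopressin receptors set how much of the kidney's water is taken back. Rows were selected by gene symbol for 8 aquaporins (*Aqp1*, *Aqp2*, *Aqp3*, *Aqp4*, *Aqp6*, *Aqp7*, *Aqp8* and *Aqp11*) and for both vasopressin receptors with a row (*Avpr2* and *Avpr1a*), which made 10 of the 19829 genes in the table. All 10 passed the filter on low values, a normalized value of 1 or more in either library, which 14997 genes passed in all. The data were whole-kidney mRNA of 1 wild-type (WT) mouse and 1 transgenic (TG) mouse that overexpresses *Inmt*, the gene of indolethylamine N-methyltransferase, in proximal tubules. The library names WT+AKI and TG+AKI are used here, where AKI stands for acute kidney injury and names the procedure, not its outcome. The paper reports that transgenic mice put through this procedure kept blood urea nitrogen and creatinine near the levels of sham-operated controls.

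By the study's methods, the mice were male, on a C57BL/6 background, and received 30 mg/kg voclosporin, a calcineurin inhibitor, each day for 2 weeks from the age of 8 weeks. Bilateral renal ischemia of 30 min followed at 14 weeks in both genotypes. The kidneys were taken 48 h later by the methods and 24 h later by a figure legend, and the promoter of the transgene was not given in the sources used here. The labels of both samples say that there was no treatment, although voclosporin appears in the series design, and the title of the TG+AKI sample adds the words conditional knockout. *Inmt* itself read 10.5 in the WT+AKI library and 403 in TG+AKI, a ratio of 38.6 (95% interval 35.1 to 42.5), so the library labelled TG+AKI carried the higher *Inmt* level.

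The libraries held 38542764 reads (WT+AKI) and 36427421 reads (TG+AKI), and 1 read was worth 0.0236 and 0.0302 on the deposited scale, which follows counts per library size (CPM). With 1 library per group no difference had a replicate check and no p-value was computed. Intervals are exact 95% intervals of the ratio of reads. They cover counting error only and hold no spread between mice. Reads amplified by PCR without molecular identifiers are not independent molecules, so the intervals may be too narrow even for counting error. A gene was counted as higher or lower at a difference of at least 2-fold, taken as at least 1 in log2(value + 0.1), a scale that understates the change of low genes. By that rule 1053 genes (7.02%) were higher in TG+AKI and 1578 (10.5%) were lower, with a median log2 difference of -0.02 over all tested genes. Every row had at least 1 read in each library, so genes without reads in WT+AKI or in TG+AKI are absent from these shares. Scaled to the same total of reads, the median shifted by -0.28 and 22.7% rather than 40.0% of the counted genes were higher, so the scaling is named below wherever it turned a direction or ended a 2-fold call of 1 of the 10 genes.

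In the kidney, water follows salt and osmotic gradients through aquaporins. AQP1 serves the proximal tubule, the descending thin limb and the descending vasa recta. In the principal cells of the collecting duct, vasopressin binds the V2 receptor (AVPR2) on the blood side, cAMP and protein kinase A are activated, and vesicles carrying AQP2 fuse with the luminal membrane, while AQP3 and AQP4 let the water leave on the blood side. The V1a receptor (AVPR1A) works through Gq, phospholipase C and calcium, as in vascular smooth muscle. AQP6 is a channel of intracellular vesicles in acid-secreting intercalated cells, AQP7 carries glycerol as well as water in the last part of the proximal tubule, AQP8 is a minor channel of tubule cells, and AQP11 lies in the endoplasmic reticulum of proximal tubule cells.

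The promoters of 5 of the genes are shown because they cover a pair of genes that were higher (*Aqp1* and *Aqp11*), the gene that was lower (*Aqp8*) and the main luminal and basolateral channels of the collecting duct (*Aqp2* and *Aqp3*). Each stretch ends where the RefSeq start begins or, where the GENCODE gene starts earlier, before that gene, is read 5′ to 3′ on the strand of the gene (GRCm38.p6), and carries in capitals the letters of any motif searched. They lie at chr6:55336049-55336298 on the plus strand (*Aqp1*), chr7:97738290-97738497 on the minus strand (*Aqp11*), chr7:123462044-123462290 on the plus strand (*Aqp8*), chr15:99578806-99579054 on the plus strand (*Aqp2*) and chr4:41098184-41098433 on the minus strand (*Aqp3*).
Aqp1: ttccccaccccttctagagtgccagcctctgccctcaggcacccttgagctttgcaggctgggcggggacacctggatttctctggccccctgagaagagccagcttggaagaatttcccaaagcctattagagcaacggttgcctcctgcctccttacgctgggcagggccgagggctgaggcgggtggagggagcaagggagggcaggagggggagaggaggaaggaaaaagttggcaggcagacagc
Aqp11: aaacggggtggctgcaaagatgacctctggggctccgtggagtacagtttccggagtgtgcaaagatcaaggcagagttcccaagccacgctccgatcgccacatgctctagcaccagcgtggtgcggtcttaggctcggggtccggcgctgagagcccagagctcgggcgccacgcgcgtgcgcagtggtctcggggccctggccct
Aqp8: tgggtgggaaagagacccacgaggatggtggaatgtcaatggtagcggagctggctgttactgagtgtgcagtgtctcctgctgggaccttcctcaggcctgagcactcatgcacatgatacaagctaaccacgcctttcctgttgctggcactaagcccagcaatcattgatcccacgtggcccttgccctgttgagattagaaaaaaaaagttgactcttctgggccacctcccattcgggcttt
Aqp2: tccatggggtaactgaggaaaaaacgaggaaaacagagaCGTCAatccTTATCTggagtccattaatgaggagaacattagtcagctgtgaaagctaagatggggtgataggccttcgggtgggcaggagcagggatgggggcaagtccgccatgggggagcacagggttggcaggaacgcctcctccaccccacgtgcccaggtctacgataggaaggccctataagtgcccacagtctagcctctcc
Aqp3: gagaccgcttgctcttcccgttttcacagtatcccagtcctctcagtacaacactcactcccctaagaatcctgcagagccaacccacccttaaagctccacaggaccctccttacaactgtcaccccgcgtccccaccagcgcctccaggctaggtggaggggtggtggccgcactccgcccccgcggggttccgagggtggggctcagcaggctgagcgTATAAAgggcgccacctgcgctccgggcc

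Motifs were searched on both strands in the 250 bases before the start, for 10 windows of 9 of the genes and for all 32851 RefSeq promoters. The 9 genes are all but *Aqp4*. The cAMP response element TGACGTCA, to which the protein kinase A target CREB binds, was in none of the 10 windows and in 1.55% of all promoters. Its shorter core TGACG, which lies within the full element, was in the windows of *Aqp2* and *Avpr1a* and in 17.8% of all promoters, and the *Aqp2* match was read on the opposite strand (CGTCA) at bases 211 to 207 before the start. The GATA site AGATAA was in the windows of *Aqp2* (opposite strand, TTATCT, bases 202 to 197) and *Aqp7*, against 9.99% of all promoters. The TATA box TATAAA was in the windows of *Aqp3* (bases 29 to 24), *Avpr1a* (bases 137 to 132) and *Avpr2* (opposite strand, TTTATA, bases 45 to 40), against 12.4%. The *Avpr2* window also overlaps other genes on the opposite strand. The CCAAT box CCAAT was in that of *Avpr1a* alone among the 9 genes, against 33.9%, and the HNF1 core GTTAAT was in none, against 6.43%. The windows of *Aqp1*, *Aqp6*, *Aqp8* and *Aqp11* held none of the motifs searched. A GC share of 67.2% and 23 CG pairs set the *Aqp11* window apart from that of *Avpr2*, with 49.2% and 0 CG pairs, where the median promoter had 52.4% GC. A match of letters is a description and was not tested as a binding site.

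Of the 10 genes, 4 were at least 2-fold higher in TG+AKI (*Aqp1*, *Aqp4*, *Aqp11* and *Avpr2*) beside 7.02% of all tested genes, 1 was at least 2-fold lower (*Aqp8*) beside 10.5%, and 5 were neither. The median log2 difference of the 10 genes was 0.49, with 7 differences above 0 and 3 below, beside -0.02 over all tested genes. Counting intervals of the ratio as deposited included 1 for *Aqp7* and *Avpr1a*. For the other genes they excluded 1, which depends on depth and scaling, and the share among all tested genes was not computed. The differences ran from -1.28 (*Aqp8*) to 1.32 (*Aqp4*), and among all tested genes the 5th to 95th percentiles were -1.63 and 1.21. Scaled to the same total, *Aqp4* alone of the 10 genes was still counted as higher, at 1.04, *Aqp1* read 0.996, just under the limit, *Aqp8* was still lower, and the differences of *Aqp2* and *Avpr1a* turned from above to below 0. In bulk RNA, fewer cells of a type and less RNA per cell cannot be told apart.

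**Figure D1:**
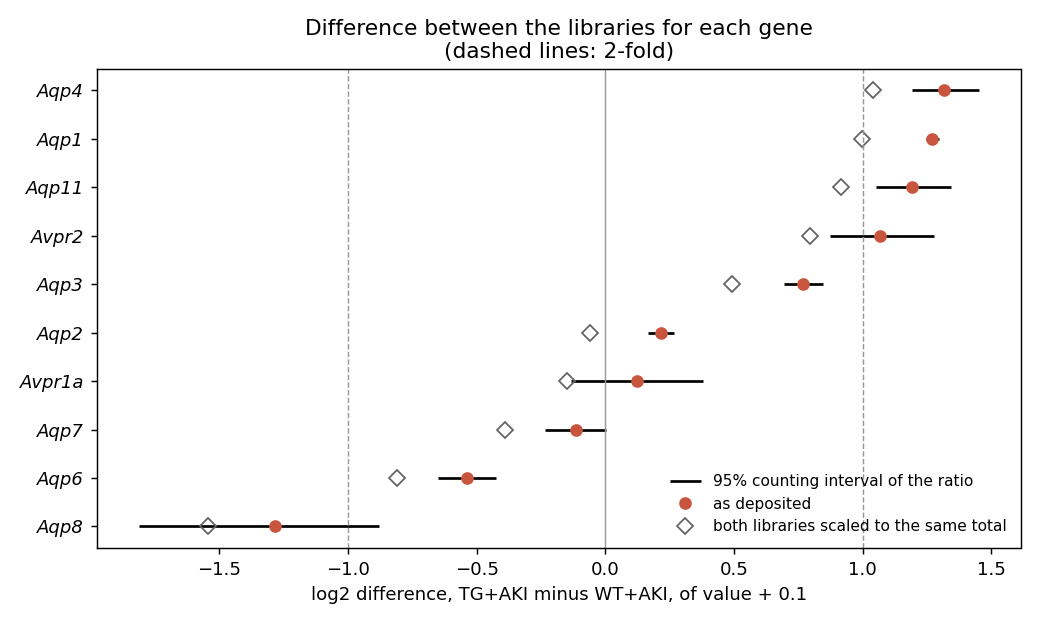
Log2 difference (TG+AKI minus WT+AKI, of value + 0.1) of each of the 10 genes, with filled points for the deposited scaling, bars for the 95% counting interval of the ratio and open diamonds for both libraries scaled to the same total (1 library per group). *Aqp4*, *Aqp1*, *Aqp11* and *Avpr2* lie beyond the dashed 2-fold line at 1 as deposited and *Aqp8* beyond that at -1, whereas with equal totals only *Aqp4* and *Aqp8* do, and *Aqp2* and *Avpr1a* change sign.

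The V2 receptor gene came first in the order of the pathway. *Avpr2* (gene ID 12000, chrX:73892102-73895502, plus strand) read 7.69 in WT+AKI and 16.2 in the TG+AKI library, from 326 and 537 reads. The value was higher in TG+AKI by 2.11-fold (1.83 to 2.43), a log2 difference of 1.07, which 6.35% of tested genes reached or passed. Of its 2886 exonic bases, 2347 overlap exons of *Arhgap4* on the opposite strand, and 72.8% of its 100-base words are shared with that gene. The kit marks strand, but the sources used here do not state that the counting used it, so the *Avpr2* count is uncertain. *Arhgap4* read 5.52 and 4.44, a log2 difference of -0.31, opposite in sign to *Avpr2*. The summed values of both genes were 13.2 and 20.7, a ratio of 1.56 (1.40 to 1.75), which was under the 2-fold limit.

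The luminal channel of principal cells, *Aqp2* (gene ID 11827, chr15:99579055-99584547, plus strand), read 153 in WT+AKI against 178 in TG+AKI, from 6509 and 5903 reads. The ratio was 1.16 (1.12 to 1.20) as deposited, and the log2 difference of 0.22 became -0.060 with equal totals, so no direction was kept. The level of *Aqp2* thus stayed within the 2-fold limit under each scaling. *Aqp3* (gene ID 11828, chr4:41092722-41098183, minus strand), which passes water, glycerol and urea on the blood side, read 58.2 and 99.2, a ratio of 1.70 (1.62 to 1.80) that was under 2-fold as well. A difference as large as that of *Aqp3*, or larger, was found in 10.9% of tested genes.

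*Aqp4* (gene ID 11829, chr18:15389496-15410982, minus strand), the other basolateral water channel, had the highest log2 difference of the 10 genes as deposited, though not the largest fold, which was that of *Aqp8*. It read 17.6 in the WT+AKI library and 43.9 in TG+AKI, from 745 and 1454 reads. The ratio of 2.50 (2.29 to 2.73) corresponded to a log2 difference of 1.32, and 4.30% of tested genes reached or passed it. Relative to *Aqp2* within the same library, which no scaling between libraries can change, there were 11.5 *Aqp4* reads per 100 *Aqp2* reads in WT+AKI (10.6 to 12.4) and 24.6 in TG+AKI (23.2 to 26.1). The same ratio for *Aqp3* was 37.9 in WT+AKI and 55.7 in the TG+AKI library, and for *Avpr2* it was 5.01 and 9.10. In whole-kidney RNA all 3 of these genes therefore had more reads per *Aqp2* read in TG+AKI, with counting intervals that did not overlap. The ratio of *Avpr2* holds within the limit on its count given above, and the part of principal cells in these ratios was not tested.

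Principal cells were followed with 7 other marker genes, which include the epithelial sodium channel subunits *Scnn1a*, *Scnn1b* and *Scnn1g*. All 7 passed the filter on low values. None was 2-fold higher and 1 was 2-fold lower (*St6gal1*, a sialyltransferase gene, 24.9 and 12.1). The median log2 difference of the markers was 0.36, with summed values of 357 in WT+AKI against 499 in TG+AKI. Per 100 reads of these markers, *Aqp2* had 43.1 reads in WT+AKI (41.8 to 44.3) and 35.7 in TG+AKI (34.7 to 36.8), a ratio of 0.830. Without *Npnt*, the marker with the most reads, the values were 61.4 and 60.3 and their intervals overlapped. *Aqp3* had 16.3 and 19.9 reads per 100 marker reads, *Aqp4* had 4.93 and 8.80, and *Avpr2* had 2.16 and 3.25. *Aqp4*, *Avpr2* and *Aqp3* were thus higher relative to the markers by 1.79-fold, 1.51-fold and 1.22-fold, and by 2.12-fold, 1.78-fold and 1.44-fold without *Npnt*. The *Avpr2* values again hold within the limit on its count. In the mouse, AQP4 is also found in the S3 segment of the proximal tubule, whose 5 listed markers summed to 871 in the WT+AKI library and 1750 in TG+AKI, and their part in the *Aqp4* difference was not tested.

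**Figure D2:**
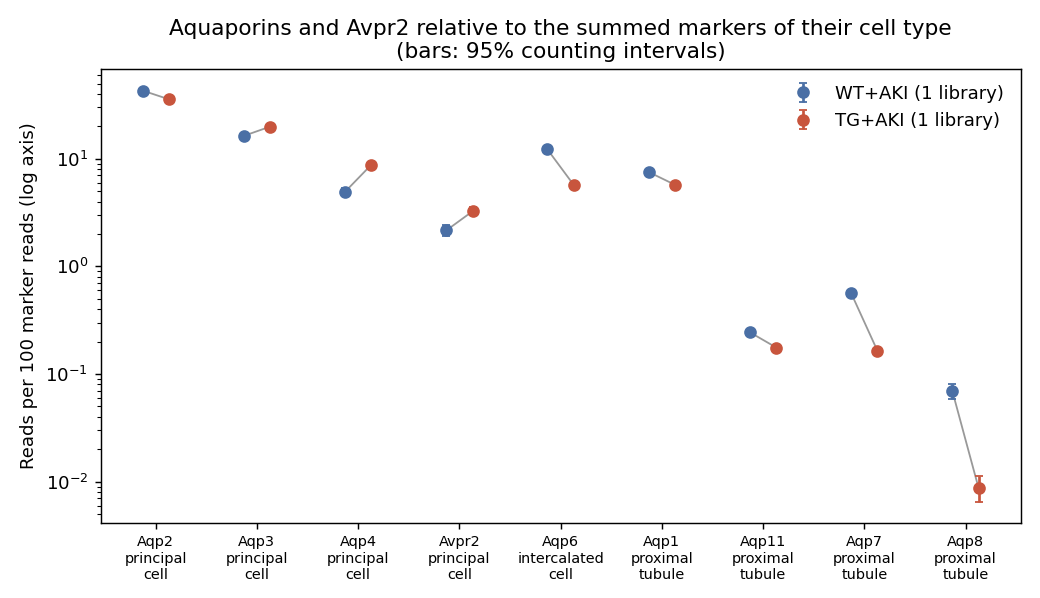
Reads of each gene per 100 summed reads of the markers of its cell type (log axis), blue for WT+AKI and red for TG+AKI, 1 library each, with 95% counting intervals that are mostly smaller than the points. *Aqp3*, *Aqp4* and *Avpr2* (whose count is uncertain) were higher in TG+AKI relative to principal cell markers, whereas *Aqp6* had 5.71 against 12.2 reads relative to intercalated cell markers. *Aqp7* and *Aqp8* had the widest gaps below WT+AKI relative to proximal tubule markers.

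*Aqp6* (gene ID 11831, chr15:99601400-99605477, plus strand) lies 16.9 kb from *Aqp2*, with *Aqp5* between them, and the neighbours differed in opposite directions as deposited, though not with equal totals, where both were lower in TG+AKI. *Aqp6* read 42.2 in WT+AKI and 29.1 in the TG+AKI library, from 1791 and 964 reads, and was lower in TG+AKI by 1.45-fold (1.34 to 1.57), under the 2-fold limit. Its log2 difference of -0.54 became -0.81 with equal totals. Of the 11 listed markers of intercalated cells 2 were 2-fold higher and none lower, with 9 differences above 0 and 2 below, a median log2 difference of 0.35 (0.08 with equal totals) and summed values of 346 and 510. The markers below 0 were *Dmrt2* (-0.53), which differed about as much as *Aqp6*, and *Atp6v1g3* (-0.03). *Slc4a1*, the basolateral chloride-bicarbonate exchanger of acid-secreting cells and of red cells, read 11.5 and 51.3, and *Insrr*, a receptor gene of base-secreting cells, read 13.9 and 37.7. Per 100 marker reads *Aqp6* had 12.2 reads in WT+AKI (11.6 to 12.8) and 5.71 in TG+AKI (5.34 to 6.09). This was lower by 2.14-fold, and by 2.27-fold without *Slc4a9*, the marker with the most reads. The list mixes acid-secreting and base-secreting cells. A sum over markers of acid-secreting cells alone was not made, so the fold relative to those cells is not known.

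*Aqp1* (gene ID 11826, chr6:55336432-55348555, plus strand) had the most reads of the 10 genes, 18275 in WT+AKI against 34447 in TG+AKI. It read 431 and 1040, a ratio of 2.41 (2.37 to 2.46) and a log2 difference of 1.27, which 4.61% of tested genes reached or passed. With equal totals the difference was 0.996 and no longer counted as 2-fold. The 10 proximal tubule markers, which include the phosphate transporter gene *Slc34a1* (764 and 5397) and the organic anion transporter gene *Slc22a8* (69.6 and 528), were 2-fold higher in 9 of 10 (7 with equal totals) and lower in none, with a median log2 difference of 1.69 and summed values of 5719 and 18154. Relative to these markers *Aqp1* was lower in TG+AKI, with 7.54 reads per 100 marker reads (7.42 to 7.65) against 5.73 (5.67 to 5.79). The direction depended on the markers, since *Aqp1* was 0.762 times as high relative to both S1 markers together, 1.05 times relative to *Slc5a2* alone and 0.522 times relative to *Slc5a12* alone, and it was 1.20-fold higher relative to the 5 markers of the S3 segment and 0.833 times as high without *Slc3a1*, the one with the most reads.

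*Aqp1* is also used by the descending thin limb, whose 3 listed markers were all 2-fold lower in TG+AKI, with summed values of 129 and 53.2. *Fst* read 15.1 and 4.56, *Bst1* read 22.9 and 7.79, and *Slc14a2*, the gene of the vasopressin-regulated urea transporters, read 90.6 and 40.9. *Aqp1* therefore differed in the direction of the proximal tubule markers and against the thin limb markers. For the red cell, which carries AQP1 too, the 5 listed hemoglobin and heme genes summed to 2.69 and 5.47. Among 7 endothelial markers none was 2-fold different, with summed values of 422 and 430. The part of each of these cell types in the *Aqp1* difference was not tested.

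*Aqp11* (gene ID 66333, chr7:97724006-97738289, minus strand), whose loss in mice gives cystic kidneys, read 13.96 in the WT+AKI library and 32.01 in TG+AKI, from 592 and 1060 reads. The ratio was 2.29 (2.07 to 2.54) and the log2 difference 1.19, or 0.92 with equal totals. *Aqp11* and *Aqp1* kept nearly the same proportion, with 3.24 *Aqp11* reads per 100 *Aqp1* reads in WT+AKI (2.98 to 3.52) and 3.08 in TG+AKI (2.89 to 3.27), intervals that overlap. Relative to the 10 proximal tubule markers *Aqp11* was lower in TG+AKI by 1.39-fold (0.244 and 0.176 reads per 100 marker reads). Relative to the S3 markers it was 1.14-fold higher with overlapping intervals, and 0.791 times as high without *Slc3a1*.

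*Aqp7* (gene ID 11832, chr4:41033074-41048139, minus strand) read 32.3 in WT+AKI and 29.8 in the TG+AKI library, from 1369 and 987 reads. The ratio of 0.923 had an interval of 0.850 to 1.002 that included 1, and the log2 difference was -0.12, or -0.39 with equal totals. *Aqp7* lies 44.6 kb from *Aqp3*, another glycerol channel gene, on the same strand of chromosome 4. Against the S3 segment, where AQP7 is placed, *Aqp7* had 3.71 reads per 100 marker reads in WT+AKI (3.51 to 3.91) and 1.70 in TG+AKI (1.60 to 1.81), lower by 2.18-fold. Of the 5 S3 markers 1 was 2-fold higher (*Slc7a13*, 40.7 and 534) and none lower. *Slc7a13* had 1725 of the 36920 S3 marker reads in WT+AKI and 17675 of 57965 in TG+AKI. Without *Slc3a1*, the S3 marker with the most reads, *Aqp7* was lower by 3.14-fold. A sum without *Slc7a13* was not made, and the size of the 2.18-fold depends on that gene. Relative to all 10 proximal tubule markers *Aqp7* was lower by 3.44-fold, and relative to *Aqp1* it went from 7.49 to 2.87 reads per 100. AQP7 is the glycerol channel of fat cells too. Of 6 adipocyte markers 1 had a row, *Cidec*, which read 5.66 in WT+AKI against 0.181 in TG+AKI. The defining markers *Adipoq* and *Plin1* had no row, which can mean no reads in WT+AKI, in TG+AKI or in both. The part of fat cells in the *Aqp7* values was not tested.

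*Aqp8* (gene ID 11833, chr7:123462291-123468004, plus strand) was the gene with the fewest reads, 168 in the WT+AKI library and 52 in TG+AKI, and read 3.96 and 1.57. It was lower in TG+AKI by 2.52-fold (1.84 to 3.51), a log2 difference of -1.28 that 7.26% of tested genes matched or undercut, and the interval included differences under 2-fold. Per 100 proximal tubule marker reads it had 0.0693 in WT+AKI and 0.00865 in the TG+AKI library, lower by 8.01-fold. *Aqp8* was the only one of the 10 genes below the 2-fold line on the lower side, at a depth where a pseudocount of 1 ended that call.

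*Avpr1a* (gene ID 54140, chr10:122448499-122453452, plus strand) read 6.49 in WT+AKI against 7.07 in TG+AKI, from 275 and 234 reads. The ratio of 1.09 (0.911 to 1.30) included 1, and the log2 difference of 0.12 became -0.15 with equal totals. A difference between these libraries was not detectable at this depth, and the counting interval as deposited lay within 2-fold. It holds no spread between mice, so it does not exclude a 2-fold difference between the genotypes. Among 5 smooth muscle markers 4 passed the filter and none was 2-fold different, with summed values of 89.0 and 83.5. *Avpr1a* had 84.4 reads per 100 *Avpr2* reads in WT+AKI (71.6 to 99.3) and 43.6 in TG+AKI (37.2 to 50.9), so the balance of the receptor transcripts moved toward *Avpr2*, within the limit on the *Avpr2* count given above.

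**Figure D3:**
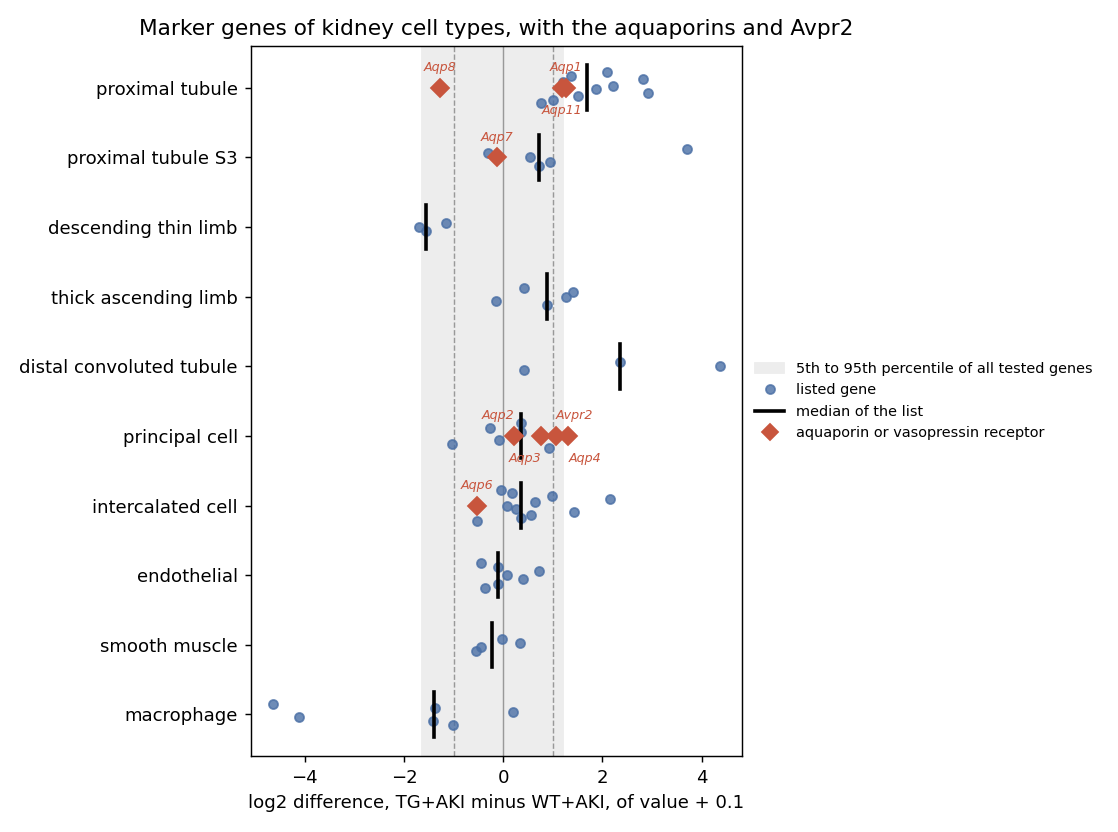
Log2 difference (TG+AKI minus WT+AKI, of value + 0.1) of marker genes of 10 kidney cell types, 1 point per gene with the median of each list as a bar, and red diamonds for the aquaporins and *Avpr2* beside the type they are placed in. The proximal tubule markers lie to the right with a median of 1.69, *Aqp1* and *Aqp11* near them and *Aqp8* at -1.28, while the thin limb and macrophage markers lie to the left with medians of -1.55 and -1.40.

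Other cell types also differed between the libraries. The 3 markers of injured tubules were all 2-fold lower in TG+AKI, and *Havcr1*, the gene of kidney injury molecule 1, read 1169 in the WT+AKI library and 2.78 in TG+AKI. Of 6 macrophage markers 5 were 2-fold lower and none higher (summed values 145 and 66.8), with *Cd68* at 37.1 and 1.39. Of 5 thick ascending limb markers 2 were 2-fold higher (summed values 1917 and 3177), and of 3 distal convoluted tubule markers 2 were (106 and 524). These segments carry none of the 8 aquaporins as their main water channel, a statement that does not cover *Avpr2*. The part of their RNA in the whole-kidney values of the 10 genes, *Avpr2* included, was not tested.

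Divided by exon length, the levels gave an order of the genes within each library. In WT+AKI the level per kilobase of exon was 164 for *Aqp1*, 108 for *Aqp2*, 31.8 for *Aqp3*, 17.4 for *Aqp6* and 11.4 for *Aqp7*, and these 5 were separated by counting error. *Aqp4* (2.82), *Avpr2* (2.66), *Aqp8* (2.51) and *Avpr1a* (2.43) followed, where each level overlapped its neighbour by counting, and *Aqp11* was lowest at 1.48. In TG+AKI the first 5 stood in the same order, at 396, 126, 54.2, 12.0 and 10.5 per kilobase. *Aqp4* (7.04), *Avpr2* (5.62), *Aqp11* (3.40), *Avpr1a* (2.65) and *Aqp8* (0.993) came next, with no overlap between neighbours. *Aqp8* was thus eighth of the 10 genes in WT+AKI and last in TG+AKI, and *Aqp11* moved from last to eighth.

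*Aqp1* took 48.3% of the summed level per kilobase of the 8 aquaporins in WT+AKI against 64.9% in TG+AKI, and its level was above that of *Aqp2* by 1.52-fold and 3.15-fold. The share of *Aqp2* was 31.8% and 20.6%, and that of *Aqp3* was 9.37% and 8.90%. *Aqp6* took 5.13% and 1.97%, *Aqp7* took 3.36% and 1.73%, and the shares of *Aqp4*, *Aqp8* and *Aqp11* were at most 1.16% in either library. The length used mattered for *Aqp11*, whose annotated exons add up to 9418 bases and whose longest transcript has 5798. With the longest transcript its level was 2.41 in WT+AKI and 5.52 per kilobase in TG+AKI, which overlapped *Avpr1a* in the former and *Avpr2* in the latter.

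**Figure D4:**
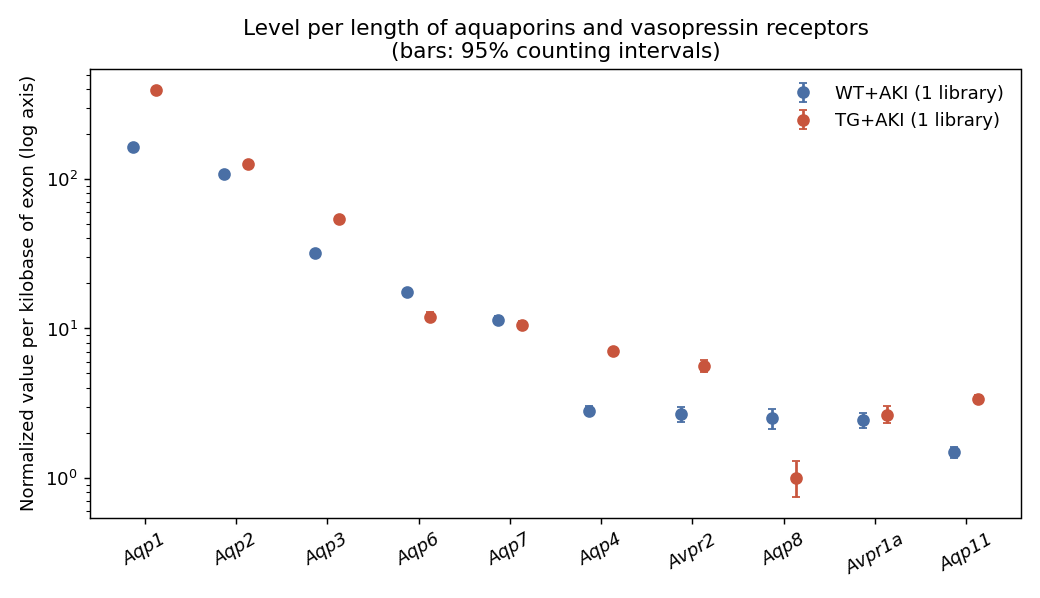
Normalized value per kilobase of annotated exon (log axis) of the 10 genes in WT+AKI (blue) and TG+AKI (red), 1 library each, with 95% counting intervals. *Aqp1* and *Aqp2* lie highest in both libraries (164 and 108 in WT+AKI, then 396 and 126 in TG+AKI), while *Aqp8* is lowest in TG+AKI at 0.993.

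Other genes of water handling were taken from lists made by pathway. Of the 7 other aquaporins, vasopressin receptors and related genes listed, 2 had a row and neither passed the filter. *Aqp5*, which lies between *Aqp2* and *Aqp6*, had 2 reads in WT+AKI and 6 in the TG+AKI library, a ratio of 3.84 with an interval of 0.687 to 38.9, so no difference was detectable at this depth. *Oxtr*, the oxytocin receptor gene, read 0.613 and 0.181. *Aqp9*, *Aqp12*, *Mip*, *Avpr1b* and the vasopressin gene *Avp* were not analysed here.

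In whole-kidney RNA, the listed signaling genes downstream of the V2 receptor differed little. All 18 genes listed (the G protein alpha subunit gene *Gnas*, adenylyl cyclases, protein kinase A subunits, phosphodiesterases and others) passed the filter and none was 2-fold different, with 9 differences above 0 and 9 below, a median log2 difference of 0.00 and a range of -0.69 to 0.66. *Gnas* read 417 in WT+AKI against 431 in TG+AKI, a log2 difference of 0.05 that was smaller than the shift between the scalings. Of the 22 genes of AQP2 vesicle trafficking and turnover none was 2-fold different either, with a median of -0.02. With equal totals both lists again held no 2-fold difference, at medians of -0.27 and -0.30 beside a median of -0.30 over all tested genes. The gene of that list with the highest mean value, *Hspa8*, which encodes a chaperone that binds AQP2, read 1515 and 2658, a ratio of 1.75 (1.74 to 1.77). These 40 genes without a 2-fold difference stand beside the 7.02% higher and 10.5% lower of all tested genes. The part of principal cells in these whole-kidney values was not tested, so a difference within those cells could go unseen.

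Downstream of the V1a receptor, 1 of 9 listed genes was 2-fold higher and 1 was 2-fold lower, with a median of -0.12. *Plcb1*, a phospholipase C gene, read 13.4 in the WT+AKI library and 29.5 in TG+AKI, which was no longer 2-fold with equal totals (log2 difference 0.85), and *Itpr3*, a calcium release channel gene, read 21.8 and 9.94. Among 8 transcription factors of the collecting duct 2 were lower and none higher, with a median of -0.16. *Elf3* read 28.9 and 10.7, lower by 2.69-fold (2.39 to 3.04), and *Elf5*, a factor of principal cells, read 2.24 and 0.906, lower by 2.47-fold (1.63 to 3.86).

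Urea and osmolyte transport held the largest difference among these lists, that of *Slc6a12*. Of 6 genes 2 were higher and 1 lower, with a median of 0.46. *Slc6a12*, the betaine transporter gene of the renal medulla, read 0.708 in WT+AKI and 4.56 in the TG+AKI library, a ratio of 6.44 (4.33 to 9.88) from 30 and 151 reads. The urea transporter genes parted, since *Slc14a1* of the vasa recta and red cells read 1.49 and 4.02, a ratio of 2.703 (1.99 to 3.71), and *Slc14a2* of the collecting duct and thin limb was lower by 2.22-fold (2.08 to 2.36). In glycerol metabolism 1 of 3 genes was higher and none lower, with a median of -0.31. *Gk*, the glycerol kinase gene, read 459 and 924, a ratio of 2.01 (1.98 to 2.05) that was under 2-fold with equal totals (log2 difference 0.73), beside *Aqp7* at a log2 difference of -0.12 as deposited and -0.39 with equal totals.

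**Figure D5:**
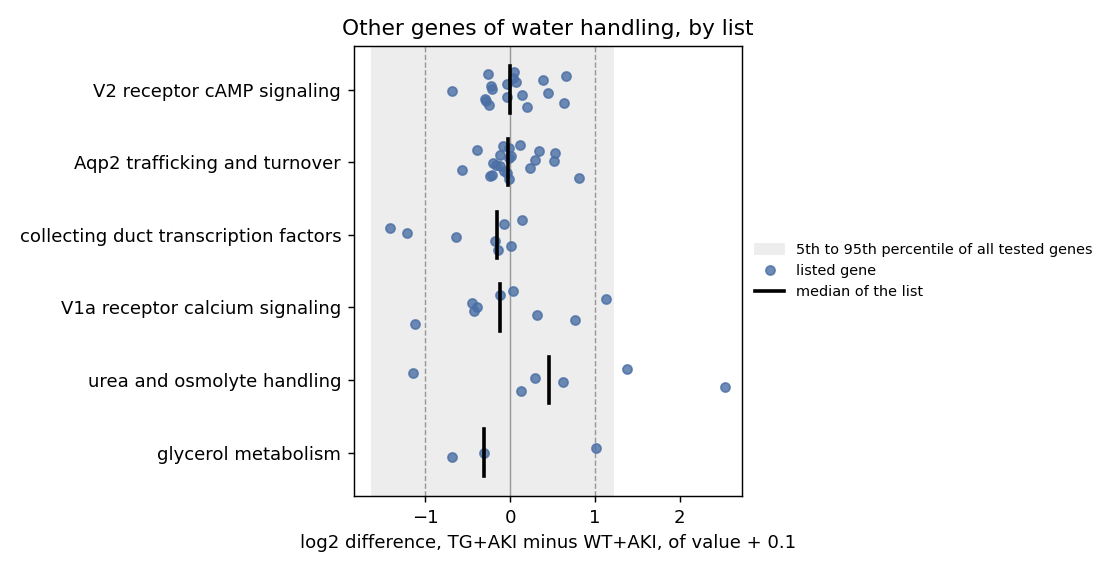
Log2 difference (TG+AKI minus WT+AKI, of value + 0.1) of the genes in 6 lists of water handling, 1 point per gene with the median of the list as a bar, over the 5th to 95th percentile of all tested genes in grey. No gene of the V2 receptor or AQP2 trafficking lists passes the dashed 2-fold lines, while *Elf3* and *Elf5* lie at -1.42 and -1.22 and *Slc6a12* at 2.53.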

How the data were processed

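Whole-kidney mRNA libraries (TruSeq Stranded mRNA, NovaSeq) of 1 WT+AKI and 1 TG+AKI mouse were compared. Groups were taken from the library names in the labels. Per the methods and the submitters' processing notes, the authors aligned reads to mm10 with STAR 2.7.3a, counted them with HTSeq and normalized them with DESeq2. The gene annotation and the use of strand in counting were not given in the sources used here. The deposited signal values were counts divided by a scaling factor, since 100% of them were whole multiples of the column minimum (tolerance 0.01), so whole reads were recovered. The deposited scaling matched the TMM factors of edgeR (trimmed mean of M-values), not DESeq2 size factors. The column sums were 909104 (WT+AKI) and 1099984 (TG+AKI).

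Genes that reached a value of 1 in either library entered the comparison on log2(value + 0.1), and a value of 1 stood for 42.4 and 33.1 reads. Ratios and shares carry exact Clopper-Pearson 95% intervals from the recovered reads. The precision of a ratio followed the reads, from 52 to 34447 per gene and library. No test over conditions was possible with 1 library per group. Levels between genes used the exon length of GENCODE release 21 for mouse (M21), and promoters came from RefSeq (GRCm38.p6). Of the gene IDs, 99.7% were found in the RefSeq gene table, and 148 of 158 listed genes had a row. The named genes were all 10 genes, those of each list at least 2-fold different (at most 3) and, where there was none, the gene with the highest mean value. *Inmt*, *Arhgap4*, *Aqp5*, *Oxtr*, marker genes left out of a sum, *Dmrt2* and *Atp6v1g3* were named besides, the last pair after their values were seen. The 10 genes and the lists were chosen with earlier results of these data known. Alternatives were other pseudocounts, filters, scalings and lengths, and marker sums without the marker with the most reads. The sums over S1 and S3 markers and the *Avpr2* and *Arhgap4* sum were added after the data were seen. On simulated Poisson counts (14714 genes) all 200 genes changed 4-fold were called, 4 unchanged genes were, and intervals covered the true ratio for 95.2%. The simulation held no spread between mice. It checks the calculation under counting error and gives no error rate for a comparison of 1 mouse with 1 mouse. Software was Python 3.11.15, numpy 2.4.6, scipy 1.17.1, pandas 2.3.3, matplotlib 3.10.9, R 4.3.3, edgeR 4.0.16 and DESeq2 1.42.0.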

Additional observations from a re-analysis of the deposited data

How the results depend on the processing

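With both libraries scaled to the same total of reads, 1 of the 10 genes was at least 2-fold higher (*Aqp4*) in place of 4, all tested genes higher numbered 687 in place of 1053, and all tested genes lower 2346 in place of 1578. The log2 differences of *Aqp2* and *Avpr1a* turned to -0.060 and -0.15 under that scaling, and the cause was not tested. A pseudocount of 1 left 0 genes of the 10 lower, since *Aqp8* read -0.95, and also ended the call of *Avpr2*. A filter at a value of 10 left 0 lower because *Aqp8* was no longer tested, with 625 higher and 784 lower among all genes. TMM scaling, which repeats the deposited scaling and so could not differ, gave 1053 and 1578. A call that also asks for an interval excluding 1 gave the same counts. DESeq2 size factors, a median ratio of 1, no filter and no pseudocount kept the calls of all 10 genes. Without *Slc3a1*, the S3 marker with the most reads, *Aqp1* went to 0.833 and *Aqp11* to 0.791 relative to S3 markers. Relative to S1 markers *Aqp1* went to 0.522 without *Slc5a2*, which had the most reads, and to 1.05 without *Slc5a12*. The S1 and S3 settings were chosen after the data were seen. The log2 difference of *Avpr2* and *Arhgap4* summed was 0.64. Over 6 settings, 8 of the 10 genes kept the direction of the difference. Other pseudocounts cannot turn a direction and TMM repeats the deposited scaling. Only equal totals, the median ratio and DESeq2 size factors could therefore have turned it. No paired analysis was possible because each group has 1 library. With no replicate, depth limits only the counting error, which is widest for *Aqp8*, and the spread between mice is unknown.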
